A study of Mus musculus with 35 samples.

Results

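The cells compared here are the 10 fibroblasts with the highest and the 10 with the lowest contractile score among 35 single mouse embryonic fibroblasts. The score of a cell was the sum of log2(CPM + 1) over Acta2, Tagln, Cnn1, Myl9, Tpm1, Tpm2, Actg2 and Cald1, where CPM scales the gene reads of every cell to the same sum, with spike-in RNA left out. The cells were therefore selected on their own RNA measurements, the 8 ranking genes are given only as a description, and no difference between the sides carries a test. A further 15 cells lay between the sides. All 35 cells were C57Bl/6J fibroblasts grown at 3% O2, irradiated with 1 Gy, moved onto membrane dishes 32 h later and cut out by laser 48 h after the dose, when a DNA stain showed micronuclei in 21 cells and none in 14. Each cell gave 1 Smart-seq2 library of polyadenylated RNA. No unirradiated cell is among them, and no culture or embryo is named for any cell, so each side was treated as 1 sample.

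Fibroblasts under tension build stress fibres, bundles of actin held together by cross-linkers and pulled by myosin. Many genes for these parts are switched on by serum response factor (SRF), which binds a short DNA element called the CArG box, and by its partners of the MRTF family, which enter the nucleus when free actin monomers become scarce. High smooth muscle actin (Acta2), transgelin (Tagln) and calponin (Cnn1) are the textbook features of the myofibroblast, a contractile fibroblast state known from wound repair.

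CArG boxes were looked for on the gene's own strand in the window from 250 bases before to 50 bases after each RefSeq gene start on GRCm38.p6; the element reads as a CArG box on the opposite strand too. A box was found in 1.63% of 32851 windows and in 108 of the 6484 measured genes with a window (1.67%). Of the ranking genes, 1 of the 6 with a window held one (Myl9), and Tagln and Actg2 had no window. In the list of other actin cytoskeleton and contractile genes it was 7 of 35 (Actg1, Acta1, Myl6, Cnn2, Fhl1, Fhl2 and Fermt2), and in the list of SRF and MRTF regulators and early targets 3 of 8 (Srf, Vcl and Egr2). The stretches below are shown because each holds a box and its gene is described below; each reads 5′ to 3′ on the gene's strand, with the box in capitals, and Srf has 2 boxes. Of measured genes with a window, 20 of the 601 called higher (3.33%) and 1 of the 196 called lower (0.510%), by the 2-fold rule given further on, held a box. Only the exact pattern of CC, 6 bases of A or T and then GG was counted. A gene without a match may still hold a box that differs from this pattern or lies outside the window. A match describes the letters in this window and nothing else.
Myl9 (chr2:156775268-156775347, plus strand): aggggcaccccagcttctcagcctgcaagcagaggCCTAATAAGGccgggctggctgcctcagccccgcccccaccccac
Fhl1 (chrX:56779546-56779625, plus strand): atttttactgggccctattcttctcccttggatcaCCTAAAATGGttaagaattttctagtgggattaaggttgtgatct
Cnn2 (chr10:79988509-79988588, plus strand): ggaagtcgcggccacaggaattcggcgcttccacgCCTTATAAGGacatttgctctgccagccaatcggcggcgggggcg
Acta1 (chr8:123894804-123894883, minus strand): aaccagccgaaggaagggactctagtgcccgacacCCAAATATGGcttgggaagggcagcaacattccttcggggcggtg
Srf (chr17:46556180-46556279, minus strand): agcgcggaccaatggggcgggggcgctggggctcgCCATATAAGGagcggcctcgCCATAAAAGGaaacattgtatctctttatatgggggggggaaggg
Vcl (chr14:20929148-20929215, plus strand): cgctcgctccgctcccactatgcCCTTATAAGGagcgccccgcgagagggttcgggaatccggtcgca

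The ranking genes differed in how strongly they parted the sides, which the score itself arranged. Acta2 (chr19:34241090-34255590) ran from 3435 to 16513 CPM in the contractile-high cells with a median of 9304, and from 346 to 7885 CPM with a median of 2746 in the contractile-low cells. Myl9, the regulatory light chain of smooth muscle myosin, had 1231 to 3333 CPM (median 2713) against 105 to 1031 (median 272). The Myl9 ranges did not overlap, whereas those of Acta2 did. Cnn1, which binds actin and slows myosin, had a median of 766 CPM in the high side and 0.352 in the low side, where the highest cell still reached 444. Actg2, smooth muscle gamma actin, had 144 to 2243 CPM in the high cells and a median of 0 in the low cells, with a highest value of 179. The actins are near-identical in sequence, and reads could have been split among Acta2, Actg2, Acta1, Actb and Actg1. Tpm1 and Cald1, a tropomyosin and the actin-binding caldesmon, differed least: log2 ratios of summed reads were 0.86 and 0.36, against 1.36 for Tpm2 and 1.56 for Tagln, whose reads may include those of the overlapping Pcsk7. Cald1 overlaps Gm14547 and Npn2 likewise.

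**Figure D1:**
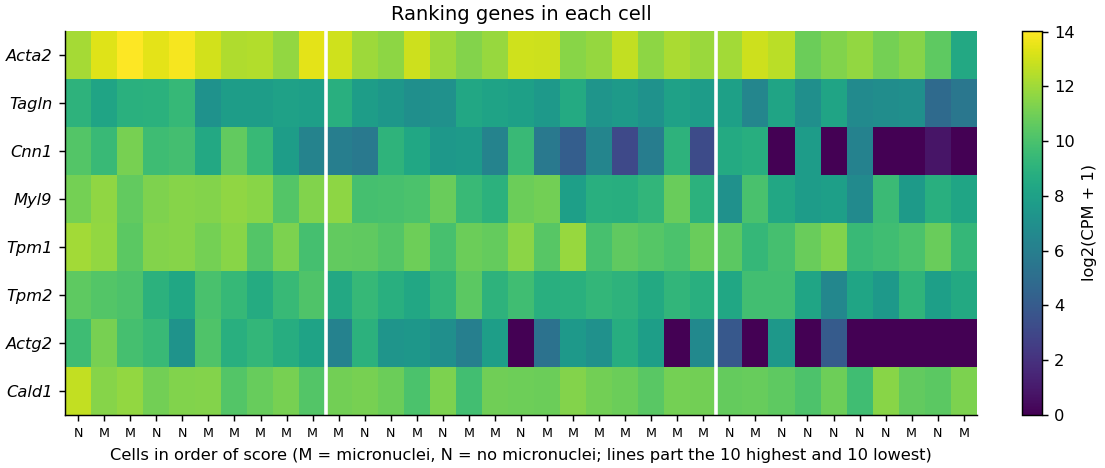
Level of each of the 8 ranking genes as log2(CPM + 1) (colour) in each of the 35 cells (columns, in order of score; M, micronuclei; N, no micronuclei). Cnn1 and Actg2 go from well detected to 0 along the order, while Cald1 and Tpm1 are present in every cell.

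Scores ran from 77.4 to 87.5 in the high side (median 82.8), from 69.2 to 75.8 in the middle and from 51.3 to 69.2 in the low side (median 59.5). The last cell inside the high side scored 77.38 and the first outside it 75.77. At the lower border a cell without micronuclei with 69.19 was inside and a micronucleated cell with 69.23 was outside, so that border fell in a continuous run of scores. The micronuclei label, which did not enter the score, was carried by 7 of the 10 high cells (70%, exact Clopper-Pearson 95% interval 34.8 to 93.3%), 11 of the 15 middle cells (73.3%) and 3 of the 10 low cells (30%, 6.67 to 65.2%). The intervals treat the cells as independent draws, and no comparison of the sides is read from them. With 12 cells a side the counts were 8 and 5 micronucleated cells, and with cells ranked by summed CPM they were 6 and 5. Median scores of all micronucleated and all other cells were 73.8 and 71.4, with ranges of 51.3 to 87.4 and 54.2 to 87.5. Because the label differs in number between the sides, values within each label are given below: 7 high against 3 low micronucleated cells, and 3 high against 7 low cells without micronuclei. These within-label ratios come from summed reads. Of the 3 low micronucleated cells, number 11 in record order had 1154998 reads, against 119337 and 262231 in the others. That cell therefore weighs most in the low side of each ratio within this label.

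**Figure D2:**
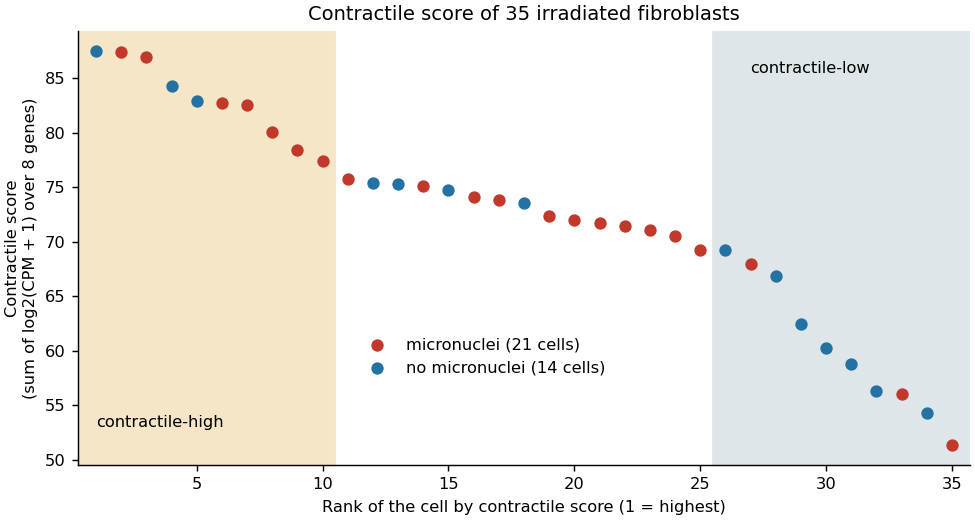
Contractile score (sum of log2(CPM + 1) over 8 genes) of the 35 cells in rank order, with the 10 highest and 10 lowest shaded and each cell coloured by its micronuclei label. The high side holds 7 micronucleated cells and the low side 3, and scores drop more steeply in the low side than in the middle.

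High cells had 200739 to 1465562 reads on genes (median 501380) and low cells 56766 to 2023111 (median 718442). Genes with a read numbered 2391 to 8964 per high cell (median 6930.5) and 3926 to 7416 per low cell (median 5178). The fewest of all 35 cells, 2391, were in micronucleated cell 6, at rank 3 by score. The cell at rank 1, cell 1 without micronuclei, had 3861. With each cell thinned to 119337 reads, which left out 1 low cell, the medians were 5620 and 4982 genes. Median ERCC spike-in shares were 0.915% and 2.46%, and mitochondrial shares 1.44% and 2.15%. Over the 35 cells the score had a Spearman correlation of -0.033 with reads and 0.235 with genes read, given as a description. Summed fibroblast markers were present in every cell, at 6031 to 13370 CPM in the high side and 4279 to 17397 CPM in the low side. Of 10 macrophage markers 3 had reads in the high side and 2 in the low side; Adgre1, Ptprc, Tyrobp, Itgam, Aif1 and Fcer1g were at 0 in both, and 98.2% of the Csf1r reads came from micronucleated cell 6 (cells are numbered in record order within their label). The highest macrophage markers of the series were in a middle cell, micronucleated cell 10, at 15556 CPM summed, and all 10 markers had reads among the middle cells. Smooth muscle and pericyte markers had reads for 9 of 9 in the high and 3 of 9 in the low side, at 4.54 to 500.2 and 14.8 to 846 CPM summed. The medians of these sums were 257 and 216 CPM, and the middle cells had reads for 7 of 9. Only 3 of the 9 passed the filter for measured genes given below. No share over all genes stands beside these counts, so no difference is read from them. Myh11 and Des were at 0 in all low cells, and 71.2% and 88.3% of their high-side reads came from cell 13 without micronuclei. Cspg4 of the same list went the other way. Its medians were 88.4 CPM in high and 122 in low micronucleated cells, and 23.2 and 238 CPM in cells without micronuclei. The part of these differences in the gene results was not tested.

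Of 8382 genes measured (at least 5 CPM over all cells and 5 reads in 5 cells), 768 were at least 2-fold higher and 242 at least 2-fold lower in the contractile-high cells in summed reads, in the equal-weight mean of the cells and without each cell in turn. These are 9.16% and 2.89% of the measured genes, the background for every list below. Ratios are log2 of (CPM + 1) in the high side over (CPM + 1) in the low side. The median ratio of all measured genes was 0.25 in summed reads and 0.02 with equal weights. TMM scaling brought the former to -0.03 and the counts to 577 and 390, so that 59.7% of the calls were higher instead of 76.0%. Most of the called genes were sparse: the median one had at least 5 reads in 6 (higher) or 7 (lower) of the 20 cells. Of the 768, 98 had no read in the low side, against 7 of the 242 in the high side. No gene had sides that did not overlap (0.0% of those measured). Genes with 5 reads in at least 16 of the 20 cells, a set chosen after seeing the data, numbered 1562, of which 17 were higher (1.09%) and 21 lower (1.34%), with a median ratio of -0.03.

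Contractile genes outside the score were mostly higher in the contractile-high cells. Of 39 measured genes for actin, its cross-linkers, myosin and their regulators, 8 were at least 2-fold higher (20.5%, beside 9.16% of all measured genes) and 0 lower, 32 had a ratio above 0, and the median ratio was 1.07 in summed reads and 0.66 with equal weights. The median was above 0 in all 41 settings and leave-outs tried. In the 32 members that were widely detected it was 0.62, beside -0.03 for all 1562 such genes. It was 0.60 within micronucleated cells and 0.81 within the others, beside 0.11 and -0.07 for all widely detected genes. Over all 39 members the micronucleated cells alone gave 0.85, which is that of all measured genes there (0.85). This list and the score both describe actin parts, so the list is no independent evidence of a contractile state.

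Fhl1, a LIM protein of the muscle and stress fibre cytoskeleton (chrX:56731787-56793346; CArG box above), had 88.4 to 4293 CPM in the 10 high cells, with a median of 772. In the low cells it had 0 to 1600 CPM, with a median of 175. The sides overlapped, but Fhl1 had at least 5 reads in 10 high and 7 low cells, and its log2 ratio was 2.68 in summed reads, 1.90 with equal weights and 1.42 at its smallest. In summed reads it was 2.50 within micronucleated cells and 3.35 within the others. The 3 low micronucleated cells had 0, 103 and 1600 CPM of Fhl1, and the 7 high ones a median of 397. Pdlim7, which links actin filaments to signalling proteins (chr13:55495795-55513676), had 153.5 to 820.0 CPM in the high side (median 595) and 0 to 332 in the low side (median 220), a ratio of 1.45. Of the high cells 9 lay above the low median. Tagln2, a relative of transgelin (chr1:172500047-172507380), had 208 to 2279 CPM (median 861) against 0 to 1678 (median 391), a ratio of 1.81. Destrin (Dstn, chr2:143915320-143943324), which severs actin filaments, had 441 to 1704 CPM with a median of 1285 in the high side. In the low side Dstn had 42.5 to 1109 CPM with a median of 524, a ratio of 1.49. The kinase Rock2, which activates myosin through its light chain, had medians of 436 and 198 CPM and a ratio of 1.34. All 5 were also among the 17 widely detected genes called higher.

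The other 3 rest on fewer cells. Smoothelin (Smtn), a stress fibre protein of smooth muscle, had at least 5 reads in 8 high and 2 low cells and medians of 40.4 and 3.30 CPM, with a ratio of 2.94. Leiomodin 1 (Lmod1), which starts actin filaments, had medians of 92.7 and 4.36 CPM and a ratio of 2.67. Myosin light chain kinase (Mylk) had no read in any low cell and 238 CPM in the high side's sum, which is at least 632-fold higher when the low side is set to a floor of 3 reads in its sum. Cell 13 without micronuclei held 93.7% of the Mylk reads, and the smallest ratio over the leave-outs was 4.16.

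Of the general actin parts, Actb differed little, and Myh9, Actn1 and Flna stayed short of 2-fold. Beta actin (Actb) had 26624 to 67700 CPM in the high cells and 17849 to 89776 in the low cells, and its ratio was -0.11 in summed reads and 0.10 with equal weights. Non-muscle myosin heavy chain (Myh9) had a ratio of 0.62, alpha-actinin 1 (Actn1) 0.29 and filamin A (Flna) 0.59, all short of 2-fold; Flna was at -0.76 within micronucleated cells. Calponin 2 (Cnn2), a non-muscle calponin with a CArG box above, had medians of 1360 and 696 CPM and ratios of 1.26 and 0.97, just short of the rule. Skeletal actin (Acta1), also with a box, had medians of 600.4 and 121 CPM and was not called. Its ratio was 1.46 in summed reads and 1.28 with equal weights, but 0.20 in summed reads within cells without micronuclei.

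**Figure D3:**
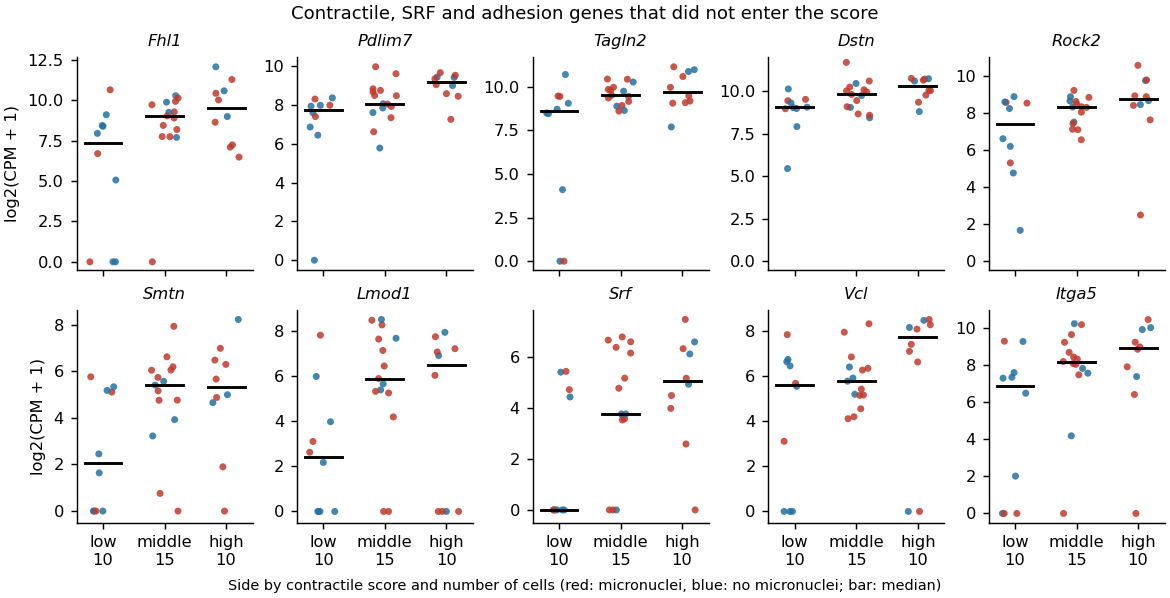
Levels as log2(CPM + 1) of 10 contractile, SRF and adhesion genes outside the score in the 10 low, 15 middle and 10 high cells (points, coloured by micronuclei label; bars, medians). The high median lies above the low median for each gene, and points of the sides overlap in all of them.

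Srf itself was higher, on fewer reads. Of 12 measured SRF and MRTF regulators and early targets 2 were at least 2-fold higher (Srf and Vcl) and 0 lower, with a median ratio of 1.04 in summed reads and 0.34 with equal weights. Srf had at least 5 reads in 7 high and 3 low cells, at 0 to 175 CPM (median 32.0) against 0 to 41.9 (median 0). The ratio of Srf was 3.16, with 2.66 and 3.31 within the labels. Among micronucleated cells the Srf medians were 21.3 CPM in the high and 25.1 CPM in the low side. Vinculin (Vcl), which couples integrin sites to actin, had 0 to 363 CPM (median 219) against 0 to 228 (median 48.0), a ratio of 1.37. Within micronucleated cells the Vcl ratio was -0.21 in summed reads. The 3 low cells of that label had 7.63, 50.3 and 228 CPM, and the 7 high ones a median of 169. Reads of Ap3m1 overlap Vcl. Mkl1, which encodes MRTF-A, had medians of 67.8 and 9.14 CPM and a ratio of 1.17, but 0.48 with equal weights. The early genes did not go 1 way. Fos had 81.6% of its reads in micronucleated cell 14, and Egr1 had ratios of 0.68 and -0.14. Junb medians were 79.9 CPM in high and 58.7 in low micronucleated cells, and 3.71 and 0 CPM in the others. Fosl1 medians were 160 and 191 CPM in micronucleated cells, and 9.26 and 176 CPM in the others. Of the 12 list members 9 had a ratio of summed reads above 0 and 3 below. The list's median was 0.32 without micronucleated cell 14, and -0.18 in the 4 widely detected members.

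Adhesion genes held as many calls for their number as the contractile list. Of 23 measured focal adhesion and integrin genes 5 were at least 2-fold higher (21.7%) and 0 lower, with a median of 0.70 and 0.47 with equal weights, above 0 in all 41 settings. Integrin alpha 5 (Itga5, chr15:103344286-103366763), the fibronectin receptor chain, had 0 to 1392 CPM with a median of 480.0 in the high cells. In the low cells Itga5 had 0 to 620 CPM with a median of 122. Itga5 had at least 5 reads in 9 high and 6 low cells and a ratio of 2.34, with 3.01 within micronucleated cells and 2.72 within the others. The 3 low micronucleated cells had 0, 0 and 620 CPM of Itga5, and the 7 high ones a median of 459. Vasp, which lengthens actin filaments at adhesions, had medians of 47.9 and 2.53 CPM and at least 5 reads in 8 and 2 cells. Paxillin (Pxn), Itgb3 and Itgb5 were called from fewer cells, with 64.8% of the Itgb5 reads in cell 1 without micronuclei.

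Pathway members and targets of YAP, a co-activator that responds to tension and cell shape, had together a share of calls at the background. Of 22 measured genes 2 (9.09%) were called higher, Tead4 and Ptpn14, and 0 lower, with medians of 0.61 and 0.35. The median was 1.73 within micronucleated cells and 0.47 within the others, beside 0.85 and -0.04 for all measured genes. Ctgf had 49.9 to 3582 CPM in the high cells (median 776) and 75.2 to 1502 in the low cells (median 674), a ratio of 1.26 that did not pass the rule. Cyr61 had a ratio of 1.03, which was 0.02 at its smallest, and 32.2% of its reads came from micronucleated cell 9. Amotl2, an angiomotin that binds YAP, had medians of 230 and 78.6 CPM and a smallest ratio of 0.996, just short of the rule. Ankrd1 had ratios of 2.41 within micronucleated cells and -2.83 within the others.

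The median ratio of matrix genes did not have 1 sign in both labels. Of 30 measured matrix genes 12 were above 0, 1 was called higher (Thbs2) and 0 lower, and the median was -0.17. It was 0.43 within micronucleated cells and -0.12 within the others, and lay under that of all measured genes in each (0.85 and -0.04). Collagen I (Col1a1) had 281 to 2764 CPM in the high cells (median 2203) and 288 to 6687 in the low cells (median 1480), a ratio of -0.48, with 1.03 and -0.36 within the labels. Fibronectin (Fn1) had a ratio of 0.22 and Col3a1 0.86 in summed reads and 0.13 with equal weights. Thrombospondin 2 (Thbs2) had medians of 125 and 20.6 CPM and a ratio of 2.28. Of 22 measured genes of TGF-beta signalling 11 were above 0 and the median was 0.003.

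Tgfb3, a TGF-beta ligand (chr12:86056745-86079041), was the 1 called member of that list. It had 0 to 1829 CPM in the high cells with a median of 236, and 0 to 99.2 CPM in the low cells with a median of 2.16. The high cells above the low median were 9 of 10, and the ratio was 5.64 in summed reads, 4.45 with equal weights and 3.87 at its smallest. It was 2.80 within micronucleated cells and 7.52 within the others, and the reads of Ttll5 and Gm37804 overlap those of Tgfb3. The median of the middle cells was 22.9 CPM.

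Replication genes were lower in the contractile-high cells, but not within both labels. Of 37 measured S phase genes 0 were called higher and 5 lower (Mcm7, Pcna, Gins1, Gins2 and Ung; 13.5%, where the background is 2.89%), with a median of -0.42 in summed reads and -0.99 with equal weights. Summed over the list, high cells had 379.7 to 5104 CPM (median 1078) and low cells 1242 to 5623 (median 3226). Pcna, the clamp that holds DNA polymerase (chr2:132249162-132253314), had 0 to 357 CPM in the high cells (median 60.3) and 0 to 503 in the low cells (median 288). Its ratio was -1.56, and only 1 high cell lay above the low median. Within cells without micronuclei Pcna had 15.4 to 38.8 CPM in the 3 high cells and 133 to 503 in the 7 low cells. In micronucleated cells the Pcna ratio was 1.11 in summed reads. The 3 low cells of that label had 0, 41.9 and 347 CPM, and the 7 high ones 0 to 357 (median 71.0). Gins2, of the replicative helicase, had at least 5 reads in 2 high and 8 low cells and a ratio of -1.82; reads of Gse1 overlap it. Mcm7, also of the helicase, had medians of 0.927 and 55.5 CPM and a ratio of -2.60, and its reads overlap Ap4m1 and Cops6. The list's median ratio was 1.14 within micronucleated cells and -1.77 within the others, beside 0.85 and -0.04 for all measured genes. The summed CPM of the list was 1242, 1374 and 4141 in the 3 low micronucleated cells. In the 7 high ones it was 379.7, 740, 756, 986, 1693.5, 2595 and 5104. Over both labels the list's median ratio was 0.15 without cell 8 without micronuclei and -0.88 without micronucleated cell 9.

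Mitotic genes gave no direction that held. Of 42 measured G2 and mitosis genes 3 were called higher (Ccnb2, Bub1 and Cdca3; 7.14%, under the background) and 0 lower. The median was 1.04 in summed reads, -0.17 with equal weights and -0.37 without micronucleated cell 9, which held 51.9%, 76.3% and 82.0% of the reads of the 3 genes. Of 22 measured p53 targets 3 were called higher (Tnfrsf10b, Rrm2b and Ptp4a3; 13.6%), with medians of 0.53 and 0.20. Tnfrsf10b, a death receptor, had 0 to 1694 CPM in the high cells (median 142) and 0 to 145 in the low cells (median 16.7). The cell cycle inhibitor Cdkn1a had 174 to 3161 CPM (median 1558) against 500.2 to 2363 (median 1221), a ratio of 0.48 in overlapping sides. Of 10 interferon-stimulated genes 1 was higher (Trim25) and 1 lower (Eif2ak2), and of 10 senescence genes none was called.

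**Figure D4:**
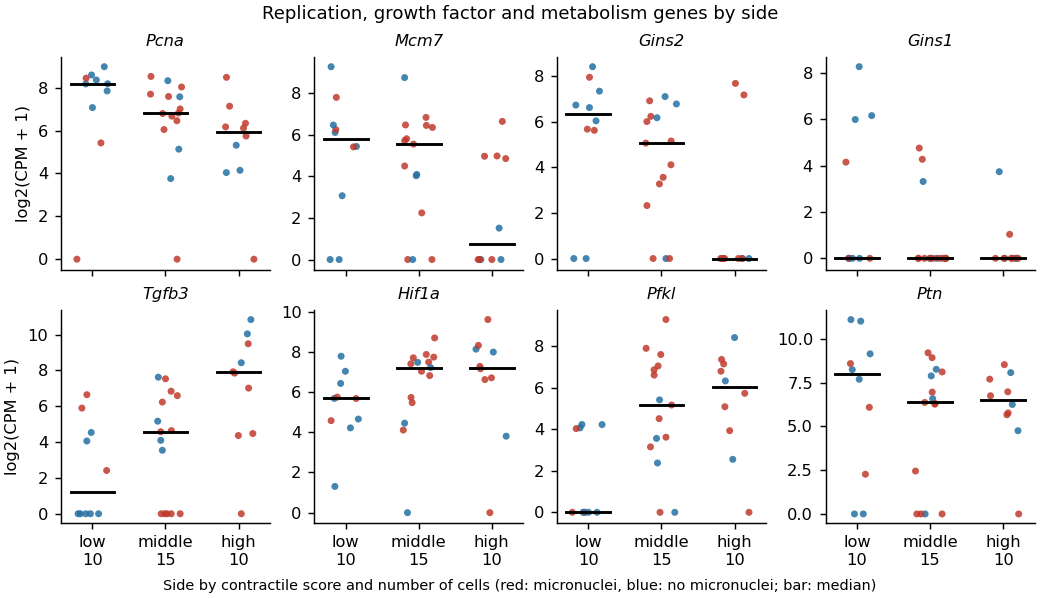
Levels as log2(CPM + 1) of replication genes (top) and of Tgfb3, Hif1a, Pfkl and Ptn (bottom) in the 10 low, 15 middle and 10 high cells (points, coloured by micronuclei label; bars, medians). Pcna has its highest median in the low cells and Tgfb3 in the high cells, and single cells of each side overlap.

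Metabolic lists differed in size. Of 24 measured glycolysis and hypoxia genes 3 (12.5%) were called higher, Pfkl, Hif1a and P4ha2, and 0 lower. The medians were 0.78 and 0.65 and stayed above 0 in all 41 settings, as did those of the YAP, p53, cholesterol and lysosome lists. Within micronucleated cells the glycolysis median was 0.81, beside 0.85 for all measured genes. Within the others it was 1.04, beside -0.04. The hypoxia factor Hif1a had 0 to 779 CPM in the high cells (median 148) and 1.47 to 219 in the low cells (median 50.4), a ratio of 2.12. Pfkl, a phosphofructokinase of glycolysis, had medians of 65.3 and 0 CPM and at least 5 reads in 7 and 2 cells. P4ha2, a collagen prolyl hydroxylase, had medians of 82.3 and 15.9 CPM. Of 21 cholesterol and lipid synthesis genes 3 were higher, among them Lss and Stard4, and 0 lower, with medians of 0.81 and 0.47. Lss, which closes the sterol rings, had 0 to 365 CPM (median 57.8) against 0 to 159 (median 1.65). Cytosolic ribosomal proteins, all 53 of them widely detected, had a median of -0.16 with 0 called, and nuclear oxidative phosphorylation genes -0.09 with 0 of 49 called.

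The remaining lists gave few calls. Of 24 lysosome and autophagy genes 2 were higher (Sqstm1, an autophagy receptor, and Gabarapl1) and 1 lower, with medians of 0.35 and 0.52. Sqstm1 had 0 to 1056 CPM in the high cells (median 413) and 0 to 267 in the low cells (median 222), a ratio of 1.83, and Mrnip overlaps it. Of 15 genes of the nuclear lamina and its links to the cytoskeleton 1 was higher (Lemd3) and 2 lower (Lmnb2 and Nup153), with a median of 0.01. These are 6.67% and 13.3%, beside 9.16% and 2.89% of all measured genes. Of the Lmnb2 reads 84.1% came from cell 8 without micronuclei. Of 12 matrix proteases and inhibitors 1 was higher (Plau, the urokinase activator of plasminogen), with a ratio of 6.77 within micronucleated cells and 0.18 within the others. Of 23 ER chaperone and stress genes 1 was higher (Chac1, with at least 5 reads in 3 high cells). Of 19 immediate early and heat shock genes 1 was lower (Dusp6, a phosphatase of ERK), at medians of 33.8 and 47.6 CPM. None of 12 inflammatory fibroblast genes and none of 10 mitochondrially encoded genes was called.

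**Figure D5:**
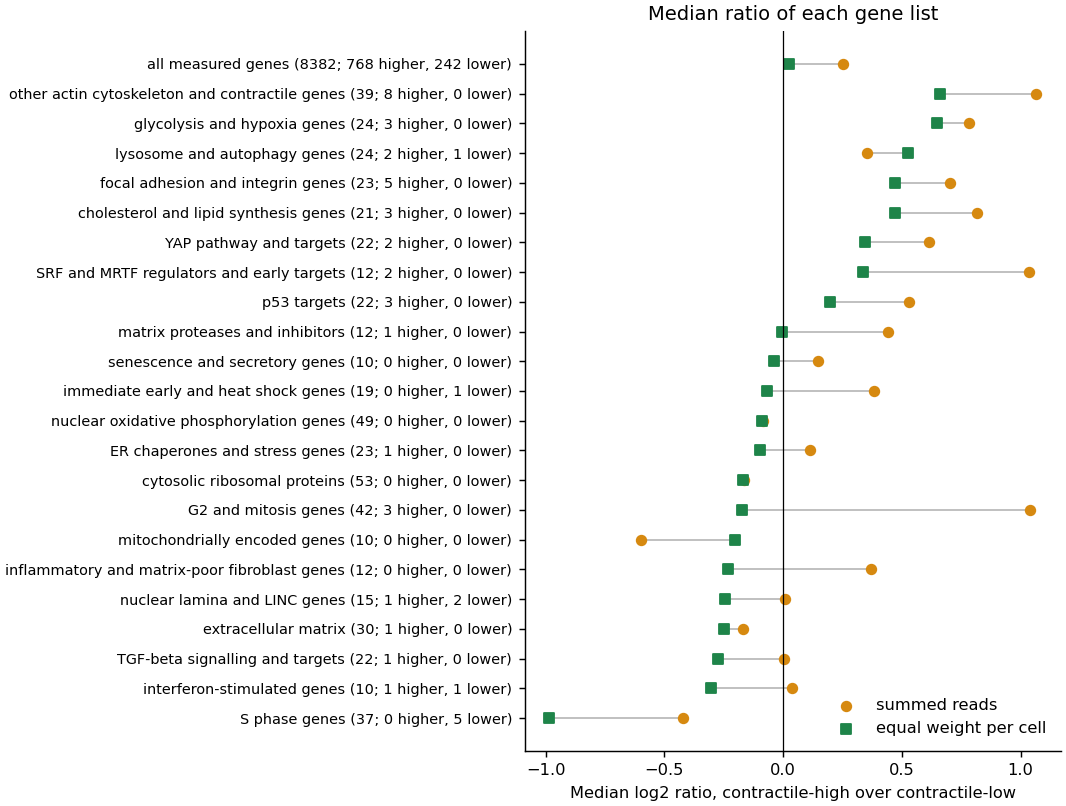
Median log2 ratio of the measured members of each gene list, contractile-high over contractile-low, in summed reads (circles) and with equal weight per cell (squares); numbers of members and of genes called are in brackets. The other contractile genes lie at 1.07 and 0.66, S phase genes at -0.42 and -0.99, and all measured genes at 0.25 and 0.02.

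The genes named by their smallest ratio over all averages and leave-outs were mostly sparse. Of the 12 higher, Slc27a1, a fatty acid transporter, had 0 to 486 CPM in the high cells (median 31.7) and no read in any low cell, at least 177-fold higher against the floor. Mafk, a small MAF transcription factor, Eci1, an enzyme of fatty acid oxidation, Lactb, Ppcdc and the crosslinking enzyme Tgm2 also had no low read, and each had at least 5 reads in 5 high cells. Nfs1, which makes iron-sulfur clusters, had at least 5 reads in 8 high cells and 1 low cell, at medians of 30.6 and 0 CPM, and its reads overlap Romo1. Ptp4a3, Zfp52 and Fam63a were also among the 12, with 82.9% of the Fam63a reads in micronucleated cell 14.

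Of the 12 lower genes, Eif2ak2, the kinase PKR (chr17:78852564-78882573), had 0 to 17.3 CPM in the high cells (median 0) and 0 to 376 in the low cells (median 33.1). Its ratio was -5.21, with -3.12 within micronucleated cells and -7.40 within the others. Lpar1, a receptor for lysophosphatidic acid, had medians of 0.524 and 80.2 CPM and a ratio of -4.63. Lpar1 had at least 5 reads in 2 high and 5 low cells, and no high cell lay above the low median. 1700012B09Rik had no read in the high side, at least 140-fold lower against the floor. Vegfc, a lymphatic growth factor, and Adam23 rest on single cells, with 84.8% of the Vegfc reads in micronucleated cell 11 and 82.2% of the Adam23 reads in cell 7 without micronuclei. The others were Ddx51, Shox2, Pspc1, Tango2, Zfp664, Peg12 and Ggps1.

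Among widely detected genes the higher ones included, beside Fhl1, Pdlim7, Tagln2 and Hif1a, the malic enzyme Me1, at medians of 157 and 35.9 CPM with 9 of 10 high cells above the low median. The small GTPase Rab1b, which moves vesicles from the ER, had 61.8 to 721 CPM (median 334) against 0 to 341 (median 32.5), and all 10 high cells lay above the low median. Rab7, of late endosomes, had 196 to 1666 CPM (median 450.3) against 0.705 to 497 (median 149.8). Beta-catenin (Ctnnb1) had medians of 101 and 53.3 CPM, and Wnt5a, a WNT ligand, 111.5 and 31.1 CPM with a ratio of 2.82. Among the lower ones pleiotrophin (Ptn, chr6:36714929-36810220), a secreted growth factor, had 0 to 367 CPM (median 90.8) against 0 to 2185 (median 253). Its ratio was -2.55, and cell 7 without micronuclei held 47.8% of the Ptn reads. Snrpd3, a splicing protein, had 0 to 95.0 CPM (median 60.6) against 61.3 to 481 (median 138), and no high cell lay above the low median. Tiprl, Gtf2h1 and Arglu1 were lower in all cells together but had ratios of 0.83, 1.26 and 0.56 in the summed reads of micronucleated cells.

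The middle cells, which entered no ratio, had a mean between those of the sides for 528 of the 768 higher genes (68.8%) and 194 of the 242 lower genes (80.2%), where the share over all measured genes was 40.7%. Among widely detected genes it was 15 of the 17 and 20 of the 21, beside 41.1% of all 1562. Without micronucleated cell 10 the counts were 529, 190, 15 and 19. The ratio had 1 sign in both labels for 635 of the 768 (82.7%) and 181 of the 242 (74.8%), beside 46.2% of all measured genes, and for 16 of the 17 and 16 of the 21 widely detected ones, beside 47.8%. Genes chosen for a large ratio in these same cells are bound to show more of both, so the counts describe the called genes and support nothing.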

How the data were processed

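Values are whole-number read counts per gene as deposited by the authors, not normalized, in 35 libraries of 1 cell each. STAR and GRCm38.p5 are named in the submitters' processing notes; the strand setting is not given in the sources used here, so overlapping genes cannot be told apart, which also touches Rock2, Smtn, Itga5, Gins2, Hif1a, Mafk, Tgm2, Zfp52, Me1, Wnt5a, Shox2, Ggps1, Tiprl, Gtf2h1 and Snrpd3. Counts were expressed as CPM without the 62 spike-ins, and reads were summed over each side (5801916 and 7976532). No p-value is given. Of 595 pairs of cells 0 were identical, and no doublet caller was run on cells cut out by laser. The members and gene lists were chosen with earlier results of these data known. Named genes were, of those with at least 20 CPM in a side and 5 reads in 5 of its cells, the 12 higher and 12 lower by smallest ratio over all averages and leave-outs, up to 4 per list, and a fixed set of contractile, matrix and marker genes; the 12 widely detected genes each way were added later. Some genes of these sets are not reported here. Intervals on numbers of cells are at 95% and treat cells as independent draws; floors hold counting error alone, because amplified reads that carry no molecular identifier can copy 1 molecule. The alternatives tried were TMM and median-of-ratios scaling, equal weights, mean log2 CPM, other added CPM and filters, thinning, other rankings and numbers of cells, each label alone and leaving out each cell; the cells without micronuclei alone, leaving out 4 cells (3 of them in the sides) with under 4000 genes or the cell of either side, or of the middle, highest in macrophage markers, and widely detected genes were chosen after seeing the data. Gene positions are those of GENCODE on GRCm38, matched by symbol. The tools were edgeR 4.0.16 (TMM) and DESeq2 1.42.0 (size factors) in R 4.3.3, and numpy 2.4.6, scipy 1.17.1, pandas 2.3.3 and matplotlib 3.10.9 in Python 3.11.15.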

Additional observations from a re-analysis of the deposited data

Results flagged for a closer look

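In 8 of 56 groups of 10 values checked, 1 cell lay far from the rest of its side; chance alone gives about 1 in 20. Among the contractile-high cells, micronucleated cell 9 stood apart in the summed CPM of S phase genes (5104, next 2595), of G2 and mitosis genes (7511, next 2034) and of inflammatory fibroblast genes (4592, next 2421). Micronucleated cell 14 stood apart in SRF and MRTF genes (2868, next 1581), and micronucleated cell 3 in the mitochondrial share of reads (5.28%, next 2.99%) and in mitochondrially encoded genes (52300 CPM, next 29669). Among the contractile-low cells, cell 7 without micronuclei had 115140 CPM of other actin and contractile genes (next 75582), and micronucleated cell 5 had 9226 CPM of YAP genes (next 5173).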

How the results depend on the processing

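The 768 genes higher became 1495 with mean log2 CPM, 505 with 5 CPM added, 345 under a stricter filter, 1386 in micronucleated cells alone, 490 in cells without micronuclei alone and 17 among widely detected genes. The 242 lower became 507 with equal weights, 364 with mean log2 CPM, 390 with TMM, 408 with median-of-ratios factors, 154 with 5 CPM added, 150 under the stricter filter, 422 with 8 cells a side, 450 ranked without Actg2, 1054 in cells without micronuclei alone and 21 among widely detected genes. Leaving out 1 cell gave 665 to 985 higher and 204 to 351 lower. A similar count did not mean the same genes. Ranking by summed CPM kept 8 of the 10 high and 7 of the 10 low cells. It called 790 genes higher and 257 lower, of which 421 and 144 were among the 768 and 242. Ranking without Actg2 kept 8 cells of each side and called 623 higher and 450 lower, of which 401 and 179 were shared. Micronucleated cells among the highest were 5 to 8 and among the lowest 2 to 5 over the other rankings and numbers of cells. In micronucleated cells alone the ratio reversed for Tango2 (2.05), Vcl (-0.21), Pcna (1.11), Cd68 (0.55), Tiprl (0.83), Gtf2h1 (1.26) and Arglu1 (0.56), and in cells without micronuclei alone for Cdca3 (-0.39), Ccnb2 (-1.98) and Lemd3 (-0.12); the cause was not tested. No paired analysis was possible because the labels give no replicate numbers shared between cells, and cells of 1 side are not paired with those of the other. Depth limits the sparse genes most: a gene at 0 in a shallow cell may be present without being read.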
